A study of Mus musculus with 28 samples.

Results

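Amino acid transporter genes were chosen by name: every row of the expression table whose symbol matched the families Slc1, Slc6, Slc7, Slc36, Slc38 and Slc43, without Slc7a11. The rule found 29 members among 43143 rows, of which 18509 carry a symbol. Of these, 27 are transporters, out of 58 genes of the same families in the GENCODE vM21 annotation. The other 2, Slc36a1os and Slc7a6os, are neighbours on the opposite strand of a transporter gene, and they matched because their names extend it.

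RNA was sequenced from 3LL cells, which derive from the mouse Lewis lung carcinoma, and from tumors that these cells formed under the skin of 6-week-old male albino C57BL/6 mice in 10 days. Cultured cells were WT, KEAP1-KO or KEAP1-NRF2-DKO (DKO), with 4 libraries of each. Experiment A set WT tumors of the left flank against KEAP1-KO tumors of the right flank, and Experiment B set KEAP1-KO tumors of the left flank against DKO tumors of the right flank, again with 4 libraries of each. KEAP1-KO lines were grown from single colonies and carry an insertion in Keap1, and DKO lines were cloned from KEAP1-KO cells after Nrf2 was also edited. Which of the KEAP1-KO lines gave the libraries is not given in the sources used here. Within an experiment, genotype, clone and flank change together and cannot be told apart, and the host mice keep their own Keap1 and Nrf2. By the study's account both kinds of tumor of an experiment grew in the same mice, and the labels do not tie tumors to a mouse, so the fits treat tumors that may share a host as independent. A sequencing batch is not named in the labels, and nothing says that libraries of cultured cells came from separate cultures, so p-values measure only the spread between these libraries.

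KEAP1 normally marks the transcription factor NRF2 for destruction, and its loss lets NRF2 raise genes of glutathione and NADPH metabolism. The members move amino acids and related small molecules across membranes. Slc1 and Slc38 proteins carry mainly neutral and acidic amino acids with sodium or by exchange, and Slc6 proteins carry neurotransmitters, glycine, taurine and creatine. Some Slc36 proteins work with protons, and Slc43 proteins are facilitators. Within Slc7, cationic transporters work alone, while light chains such as LAT1 (Slc7a5) reach the surface only with a heavy chain such as CD98 (Slc3a2). Cells short of amino acids activate GCN2 and ATF4, a transcription factor that raises several of these transporters, and the cystine carrier Slc7a11, left out here, is a common target of NRF2 and ATF4.

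Values are given as log2(normalized count + 4), so that 2 is the value of 0 reads. The libraries held between 4222352 and 7524277 reads (median 5619774), and 13.9% to 23.5% of the rows were at 0 reads in a library. In cells, Nqo1, an NRF2 target, rose by 3.44 ± 0.07 (log2, SE) with KEAP1-KO and fell by 5.68 ± 0.07 from KEAP1-KO to DKO, and the difference of Keap1 between KEAP1-KO and WT cells was -1.86 ± 0.07. Nfe2l2, which encodes NRF2, did not pass the test between DKO and KEAP1-KO (0.22 ± 0.21 in cells and -0.001 ± 0.14 in tumors), and its row does not measure the edited protein. Of 15 textbook NRF2 targets, 14 rose with KEAP1-KO and 15 fell with DKO in cells.

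A member is read through 1 row of the table. It is a gene row for 8 members: Slc1a1, Slc1a4, Slc6a4, Slc7a2, Slc7a14, Slc36a4, Slc36a1os and Slc38a4. The other 21 rows are single transcripts: 13 with a retained intron (among them Slc1a5, Slc6a8, Slc7a3, Slc7a5, Slc7a6, Slc7a8, Slc38a2 and Slc43a3), 3 processed transcripts (Slc6a6, Slc7a7 and Slc36a1), 3 protein coding (Slc7a1, Slc38a10 and Slc43a2) and 2 subject to nonsense-mediated decay (Slc6a9 and Slc38a6). A further 65 rows without a symbol belong to 15 of the members by GENCODE vM21. Differences between genotypes of such a member are those of its transcript and need not be those of the gene, and levels are not compared between genes because no length was applied. A row was tested where at least 4 libraries of the fit held at least 5 normalized counts. That left 20 members in cells and 27 in tumors. Slc36a1 and Slc6a6 passed in neither, and Slc1a1, Slc1a7, Slc36a4, Slc38a4, Slc6a4, Slc7a2 and Slc7a8 passed in tumors only. The 9 members not tested in cells had mean values of 2.0 to 3.01 there.

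**Figure D1:**
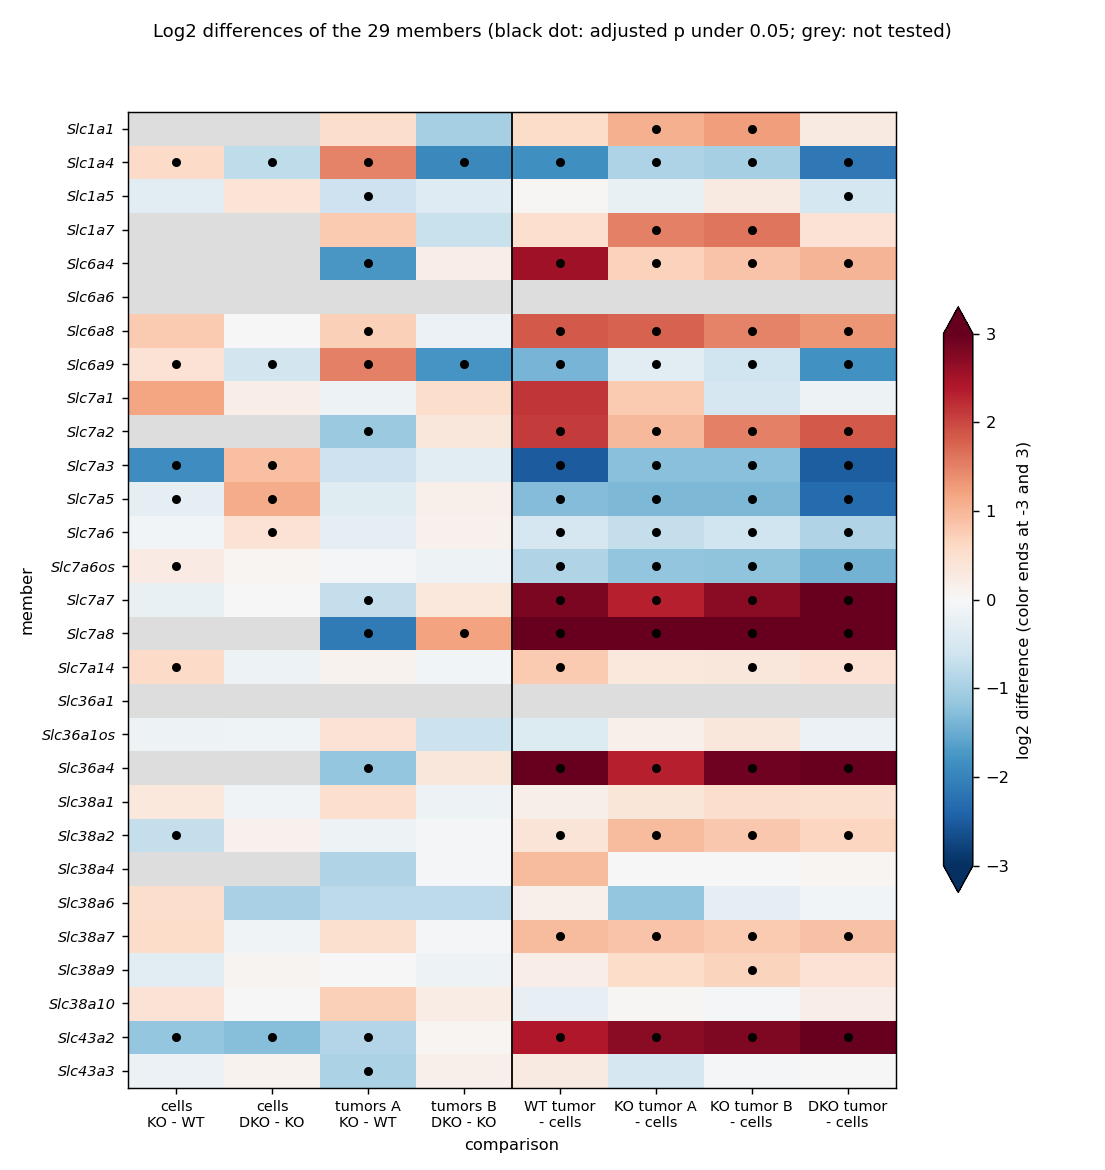
Log2 differences of the 29 members (rows) in 8 comparisons (columns), blue for lower and red for higher, with a black dot where the adjusted p of limma was under 0.05 and grey where the row was not tested. Slc1a4 and Slc6a9 carry a dot in all 8 columns, red for KEAP1-KO against WT and blue for DKO against KEAP1-KO.

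Slc1a4, which encodes the neutral amino acid exchanger ASCT1 for serine, alanine and threonine, and Slc6a9, which encodes the glycine transporter GLYT1, were the members that rose with KEAP1-KO and fell with DKO both in culture and in tumors. Rows that rose and then fell in this way made up 2.16% of those tested in cells and 1.69% in tumors. The share of rows that did so in both was not counted. Each gene changed more in tumors than in cells. Because they moved together, the RefSeq promoter windows (GRCm38.p6, 250 bases before to 50 after a gene start) were searched for the core of the antioxidant response element that NRF2 binds, TGACNNNGC, and for the amino acid response element that ATF4 complexes bind, TGATGNAA, on both strands. The table matched 21 of the 29 members. Slc1a5, Slc38a1, Slc43a3, Slc6a6, Slc6a8, Slc7a2, Slc7a3 and Slc7a5 had no entry. The windows that hold a match for this pair are printed 5′ to 3′ on the strand of the gene, with the match in capitals.
Slc1a4, chr11:20332664-20332963 (minus strand): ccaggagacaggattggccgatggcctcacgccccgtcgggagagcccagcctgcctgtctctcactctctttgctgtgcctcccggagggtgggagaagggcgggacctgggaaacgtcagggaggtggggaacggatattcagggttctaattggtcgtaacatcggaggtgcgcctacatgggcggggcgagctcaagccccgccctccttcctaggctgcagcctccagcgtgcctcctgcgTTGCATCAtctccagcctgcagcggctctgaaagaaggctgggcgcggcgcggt
Slc6a9, chr4:117849100-117849399 (plus strand): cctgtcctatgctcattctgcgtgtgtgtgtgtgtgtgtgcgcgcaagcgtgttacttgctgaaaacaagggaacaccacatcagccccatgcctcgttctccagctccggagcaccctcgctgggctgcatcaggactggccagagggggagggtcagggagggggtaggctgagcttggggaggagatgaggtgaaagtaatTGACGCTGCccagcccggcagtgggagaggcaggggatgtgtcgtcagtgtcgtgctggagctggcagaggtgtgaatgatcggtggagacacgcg
Slc6a9, chr4:117855297-117855596 (plus strand): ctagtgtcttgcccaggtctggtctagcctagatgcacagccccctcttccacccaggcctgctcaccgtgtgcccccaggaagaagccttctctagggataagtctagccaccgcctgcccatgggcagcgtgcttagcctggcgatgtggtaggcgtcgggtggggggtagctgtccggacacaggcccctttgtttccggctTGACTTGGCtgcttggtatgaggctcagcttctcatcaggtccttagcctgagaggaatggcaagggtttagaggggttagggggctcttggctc

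The Slc1a4 window holds the amino acid response element as TGATGCAA on the opposite strand, which reads TTGCATCA as printed here. Each of the Slc6a9 windows shown holds 1 antioxidant response element core. The Slc6a9 transcript in the table starts 75 bases past the gene start of another window, chr4:117835008-117835307, in which neither motif was found. The antioxidant core was present in 12.4% of all 32851 windows and in 8 of the 32 windows of members, belonging to Slc36a1, Slc36a1os, Slc38a2, Slc6a9, Slc7a1 and Slc7a6. The amino acid response element was present in 4% of all windows and in 3 of 32 of members, belonging to Slc1a4 and Slc7a7. Some windows of Slc7a6 and of Slc7a7 overlap and hold the same site. By gene, the core was found for 6 and the amino acid response element for 2 of the 21 members matched. A match is a description of the letters and not evidence of binding.

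In WT cells Slc1a4 was at 9.49, 9.35, 9.47 and 9.38, in KEAP1-KO cells at 10, 10.03, 9.98 and 10, and in DKO cells at 9.25, 9.15, 9.32 and 9.25. The KEAP1-KO libraries lay above both other groups, and the DKO libraries lay just under WT. The difference was 0.58 ± 0.05 (log2, SE; limma adjusted p = 4.41e-06) for KEAP1-KO against WT, -0.76 ± 0.05 (adjusted p = 5.19e-07) for DKO against KEAP1-KO and -0.19 ± 0.05 (adjusted p = 0.0208) for DKO against WT, a call lost without WT replicate 1 or 3 or DKO replicate 2 (-0.21 to -0.15). In WT tumors it was at 7.88, 7.62, 7.22 and 7.61, and in KEAP1-KO tumors of Experiment A at 8.93, 8.84, 9.46 and 9.08. In Experiment B it was at 8.97, 9.14, 9.12 and 8.84 with KEAP1-KO and at 6.87, 7.10, 7.10 and 7.27 with DKO. All 8 KEAP1-KO tumors lay above all 8 others, with differences of 1.5 ± 0.15 (adjusted p = 3.71e-06) in Experiment A and -1.93 ± 0.15 (adjusted p = 5.22e-07) in Experiment B.

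Slc6a9 was at 9.40, 9.49, 9.51 and 9.46 in WT cells, at 9.90, 9.86, 9.91 and 9.96 in KEAP1-KO cells and at 9.47, 9.27, 9.34 and 9.38 in DKO cells. The KEAP1-KO cells again lay above both other groups, by 0.44 ± 0.05 (adjusted p = 5.4e-05) over WT, and DKO was lower than KEAP1-KO by a difference of -0.54 ± 0.05 (adjusted p = 1.41e-05). WT and DKO cells overlapped and did not pass the test (-0.10 ± 0.05, adjusted p = 0.207). In tumors it was at 8.45, 8.24, 7.99 and 7.61 with WT and at 9.45, 9.45, 9.72 and 9.72 with KEAP1-KO in Experiment A. In Experiment B the values were 9.09, 9.41, 9.50 and 9.19 with KEAP1-KO and 7.38, 7.54, 7.44 and 7.80 with DKO. The differences were 1.51 ± 0.16 (adjusted p = 5.83e-06) and -1.76 ± 0.16 (adjusted p = 2.52e-06), and no KEAP1-KO tumor overlapped the tumors it was compared with. The Slc6a9 gene overlaps opposite-strand genes, B4galt2 and Ccdc24 among them, and the library kit marks strand. The 1 other Slc6a9 transcript row that could be tested in cells and in tumors was not called between genotypes.

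The change with genotype was larger in tumors than in cells for both genes by the interaction in the fit of all 28 libraries. For KEAP1-KO against WT the excess in tumors was 0.92 ± 0.17 for Slc1a4 (adjusted p = 0.000687) and 1.07 ± 0.18 for Slc6a9 (adjusted p = 0.00023). For DKO against KEAP1-KO it was -1.17 ± 0.17 (adjusted p = 8e-05) and -1.22 ± 0.18 (adjusted p = 9.61e-05). Interactions were counted over the 20 members tested both in cells and in tumors, a restriction chosen after seeing the data. For KEAP1-KO against WT, 4 were called higher and 0 lower, against 4.39% of the 28192 rows tested in both (1.8% higher and 2.59% lower) and 5.38% of all rows (1.5% and 3.88%). For DKO against KEAP1-KO, 1 was called higher and 4 lower, against 3.62% (1.72% and 1.89%) and 3.67% of all rows (2.12% and 1.55%). The 2 interactions share the KEAP1-KO cells. The WT and DKO tumors stood furthest from their cells. Slc1a4 was lower in tumors than in cells by -1.84 ± 0.12 with WT, -0.92 ± 0.12 and -0.99 ± 0.12 with KEAP1-KO (A and B) and -2.16 ± 0.12 with DKO. Tumors hold other cells besides 3LL cells, and in bulk RNA fewer cells of a type and less RNA per cell cannot be told apart.

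**Figure D2:**
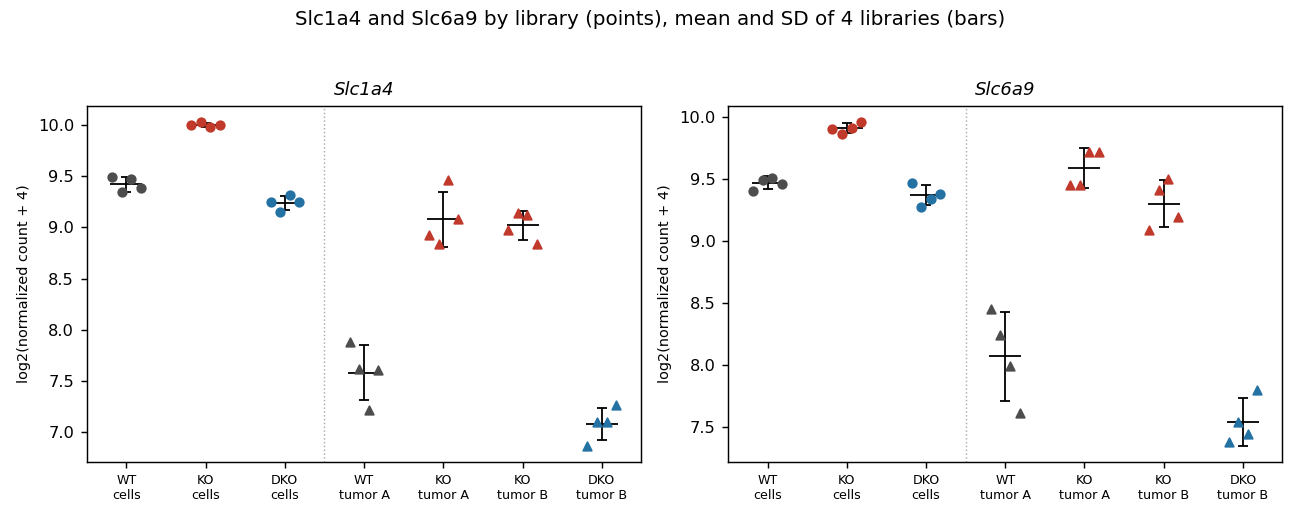
Values of Slc1a4 and Slc6a9 on the log2(normalized count + 4) scale (vertical axis) in the 7 groups (horizontal axis), with 1 point per library and the mean with SD of 4 libraries as bars. KEAP1-KO libraries (red) are the highest of the cells and of the tumors, and the gap to WT (grey) and DKO (blue) is wider among the tumors.

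In cultured cells, KEAP1-KO against WT gave 4 members higher and 4 lower among the 20 tested, against 15.5% of all 29744 rows called in either direction (8.13% higher and 7.33% lower), with a median difference of 0.08 for the members and 0.02 for all rows. Besides Slc1a4 and Slc6a9, Slc7a14, a member of the cationic group found in lysosomes, and Slc7a6os were the ones that rose. Slc7a3, Slc43a2, Slc38a2 and Slc7a5 fell. From KEAP1-KO to DKO, 3 members rose (Slc7a5, Slc7a3 and Slc7a6) and 3 fell (Slc43a2, Slc1a4 and Slc6a9), against 8.83% of all rows (3.98% higher and 4.85% lower). DKO against WT gave 3 higher (Slc7a5, Slc7a6 and Slc7a6os) and 4 lower (Slc43a2, Slc7a3, Slc38a2 and Slc1a4), against 17.7% of all rows (8.46% higher and 9.2% lower). These 3 comparisons share libraries.

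Slc7a5, the light chain of the large neutral amino acid transporter LAT1 that brings in leucine and other essential amino acids, was the member with the most normalized counts in cells. It was at 12.49, 12.46, 12.52 and 12.45 in WT, at 12.08, 12.19, 12.20 and 12.24 in KEAP1-KO and at 13.32, 13.20, 13.30 and 13.37 in DKO cells. The 3 groups did not overlap. The difference was -0.30 ± 0.04 for KEAP1-KO against WT (adjusted p = 0.000362), 1.12 ± 0.04 for DKO against KEAP1-KO (adjusted p = 3.57e-09) and 0.82 ± 0.04 for DKO against WT (adjusted p = 6.65e-08). In mean normalized counts this was 5710, 4630 and 10100.

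Slc3a2, the heavy chain that Slc7a5 pairs with, moved the same way. It was at 11.79 to 11.88 in WT, 11.64 to 11.75 in KEAP1-KO and 12.37 to 12.49 in DKO cells. The difference was -0.14 ± 0.04 (adjusted p = 0.0345) for KEAP1-KO against WT and 0.72 ± 0.04 (adjusted p = 1.1e-07) for DKO against KEAP1-KO. Slc3a1, the heavy chain of the cystine transporter of kidney and gut, was at 3.88 to 5.56 in cells and did not pass the test in either comparison of adjacent genotypes. Slc7a6, the light chain of an exchanger of cationic for neutral amino acids, did not differ detectably between KEAP1-KO and WT (-0.07 ± 0.09, adjusted p = 0.68), but all 4 DKO libraries (9.89 to 10.20) lay above KEAP1-KO (9.47 to 9.83), a difference of 0.43 ± 0.09 (adjusted p = 0.0085).

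Slc7a3, a transporter of arginine and lysine, had the largest fall of the members with KEAP1-KO in cells. It was at 8.5, 8.51, 8.52 and 8.5 in WT, at 6.47, 6.62, 6.78 and 6.72 in KEAP1-KO and at 7.84, 7.41, 7.22 and 7.68 in DKO cells. The groups did not overlap, and DKO lay between the other two. Slc7a5 and Slc7a3 were the members that fell and then rose in cells, as did 1.49% of all rows. The difference was -1.86 ± 0.12 (adjusted p = 4.08e-07) for KEAP1-KO, 0.89 ± 0.12 (adjusted p = 0.000382) for DKO against KEAP1-KO and -0.97 ± 0.12 (adjusted p = 9.86e-05) for DKO against WT.

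The amino acid response was read from a list of 27 genes of GCN2 and ATF4, of which 22 rows were tested in cells. With KEAP1-KO, 12 fell and 2 rose (median -0.19), where 7.33% of all rows fell and 8.13% rose (median 0.02). From KEAP1-KO to DKO 16 rose and 1 fell (median 0.71), where 3.98% of all rows rose and 4.85% fell (median -0.03). Trib3, a pseudokinase induced by ATF4, fell by 1.03 on the log2 scale and then rose by 1.77 ± 0.07 (adjusted p = 3.33e-09). Chac1, which degrades glutathione, changed by -1.0 ± 0.08 and then 1.62 ± 0.08, and Sesn2, a leucine sensor, by -0.45 ± 0.07 and then 1.44 ± 0.07. Atf4 itself changed by -0.19 ± 0.04 and 0.43 ± 0.04, and Asns, asparagine synthetase, by -0.21 ± 0.05 and 0.81 ± 0.05. Of the members called in both comparisons, Slc7a5 and Slc7a3 had the signs of these genes, as did Slc3a2. Slc1a4 and Slc6a9 had the opposite signs, and Slc43a2 was lower in both. Both comparisons share the KEAP1-KO libraries, and whether the list moved these transporters was not tested.

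In tumors Slc7a5 was at 11.37, 11.19, 11.06 and 11.09 with WT, 10.73, 10.65, 11.17 and 10.72 with KEAP1-KO in Experiment A, 10.59, 11.11, 10.85 and 10.80 with KEAP1-KO in Experiment B and 10.72, 11.11, 11.07 and 11.08 with DKO. The groups overlapped, and neither difference passed the test (-0.36 ± 0.13, adjusted p = 0.082, and 0.16 ± 0.13, adjusted p = 0.565). With rows summed, where fewer rows are tested and 25.9% are called, the same difference in Experiment A passed (-0.36, adjusted p = 0.0462). The effect of DKO against KEAP1-KO differed between tumors and cells by -0.97 ± 0.15 (adjusted p = 0.000174). Slc3a2 had the same interaction, -0.99 ± 0.11 (adjusted p = 4.29e-06), with tumor differences of 0.07 ± 0.10 and -0.27 ± 0.10 that did not pass. Slc7a3 was at 5.37 to 6.43 with WT, 5.13 to 5.55 and 5.19 to 5.58 with KEAP1-KO and 4.74 to 5.28 with DKO, with differences of -0.62 ± 0.20 (adjusted p = 0.0559) and -0.33 ± 0.20 (adjusted p = 0.413), of which the first passed with rows summed (-0.62, adjusted p = 0.0329). Slc7a6 was at 8.97 to 9.41 with WT, 8.68 to 9.18 and 8.90 to 9.19 with KEAP1-KO and 9.05 to 9.29 with DKO, and its single row gave no call between them (-0.28 ± 0.12, adjusted p = 0.13, and 0.13 ± 0.12, adjusted p = 0.6). With rows summed Slc7a6 was lower in Experiment A (-0.35, adjusted p = 0.00223), and its interactions were -0.34 (adjusted p = 0.0194) and -0.40 (adjusted p = 0.00854), neither of them called by the single row. The Slc7a3 interactions were 1.24 ± 0.24 (adjusted p = 0.00163) and -1.22 ± 0.24 (adjusted p = 0.00321). Of the amino acid response list, 15 of 24 rows tested were called for the interaction of DKO against KEAP1-KO, each of them lower, where 1.55% of all rows were lower.

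**Figure D3:**
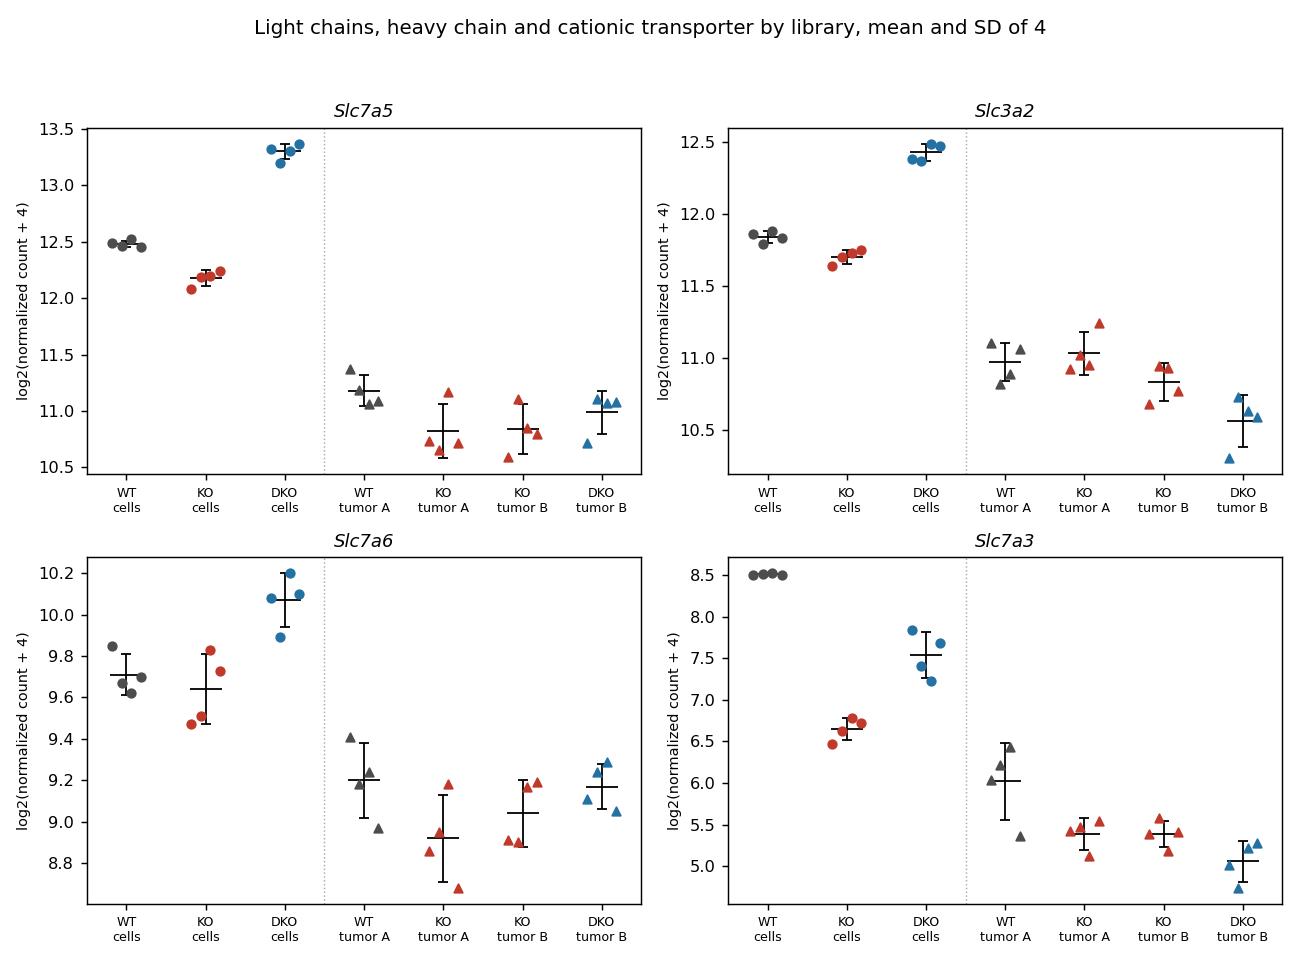
Values of the light chains Slc7a5 and Slc7a6, their heavy chain Slc3a2 and the cationic transporter Slc7a3 on the log2(normalized count + 4) scale in the 7 groups, with 1 point per library and the mean with SD of 4 libraries. DKO cells are the highest group for Slc7a5, Slc3a2 and Slc7a6 and lie between WT and KEAP1-KO for Slc7a3, and all 4 genes are lower in tumors than in cells of the same genotype.

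Slc43a2, which encodes the system L facilitator LAT4, was the member that fell at each step in cells. Its protein coding row was at 7.15, 6.95, 6.74 and 7.08 in WT, at 5.88, 5.73, 5.88 and 5.76 in KEAP1-KO and at 3.88, 4.92, 4.64 and 4.71 in DKO cells. No groups overlapped, with differences of -1.17 ± 0.19 (adjusted p = 0.00109) and -1.27 ± 0.19 (adjusted p = 0.000977) and a total of -2.44 ± 0.19 between DKO and WT (adjusted p = 2.35e-06). In tumors it was far higher, at 9.56, 9.57, 9.40 and 9.0 with WT, 8.44, 8.38, 8.63 and 8.61 with KEAP1-KO in Experiment A, 8.63, 8.85, 8.45 and 8.51 with KEAP1-KO in Experiment B and 8.78, 8.39, 8.61 and 8.93 with DKO. KEAP1-KO tumors lay below WT tumors by a difference of -0.87 ± 0.14 (adjusted p = 0.00038), and DKO did not differ detectably from KEAP1-KO (0.07 ± 0.14, adjusted p = 0.845). The interaction for DKO against KEAP1-KO was 1.34 ± 0.24 (adjusted p = 0.000851).

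Slc38a2 encodes SNAT2, a sodium-coupled carrier of small neutral amino acids that starved cells raise. It was at 9.89, 9.89, 9.81 and 9.86 in WT, at 9.18, 9.21, 9.10 and 9.07 in KEAP1-KO and at 9.31, 9.43, 9.18 and 9.17 in DKO cells. WT cells lay above both other groups, by a difference of -0.72 ± 0.06 for KEAP1-KO (adjusted p = 5.12e-06), and DKO against KEAP1-KO did not pass (0.13 ± 0.06, adjusted p = 0.277). Among tumors, WT (10.07 to 10.49), KEAP1-KO (9.96 to 10.23 and 9.75 to 10.07) and DKO (9.78 to 10.02) were closer, and the effect of KEAP1-KO differed from that in cells by 0.56 ± 0.12 (adjusted p = 0.00344).

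Slc7a14 rose by 0.58 ± 0.16 with KEAP1-KO in cells (5.46 to 6.11 against 6.21 to 6.73, adjusted p = 0.0294) and Slc7a6os by 0.24 ± 0.07 (8.30 to 8.62 against 8.63 to 8.78, adjusted p = 0.0411). Neither call was firm. The Slc7a14 call was lost without WT replicate 1 or 4 or KEAP1-KO replicate 1 or 2, where the difference ranged from 0.46 to 0.68 over the libraries left out in turn. The Slc7a6os call was lost without WT replicate 2 or 4 or KEAP1-KO replicate 1, 3 or 4 (0.18 to 0.29).

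Members read through a single transcript can be compared with the sum of all rows of their gene. With rows summed, 13 members instead of 8 were called for KEAP1-KO against WT in cells, while the share called of all 15487 sums was 29.7%. Added as higher were Slc6a8, the creatine transporter (0.81), Slc6a6, the taurine transporter (0.56), Slc38a10 (0.53) and Slc38a1 (0.18), and added as lower was Slc1a5, the glutamine transporter ASCT2 (-0.34). The Slc1a5 sum then rose from KEAP1-KO to DKO by 0.38, where the single row gave 0.41 ± 0.12 without passing the test (adjusted p = 0.0587). From KEAP1-KO to DKO the Slc6a6 sum fell (-0.59, adjusted p = 0.0189). Between DKO and WT cells the sums of Slc38a7 (0.66, adjusted p = 0.012) and Slc38a1 (0.36, adjusted p = 0.000206) were higher and that of Slc38a9 lower (-0.61, adjusted p = 0.00422), where 32.1% of all sums were called. Slc7a5, Slc7a3 and Slc7a8 have a single row, so their own values are the same in the sum.

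**Figure D4:**
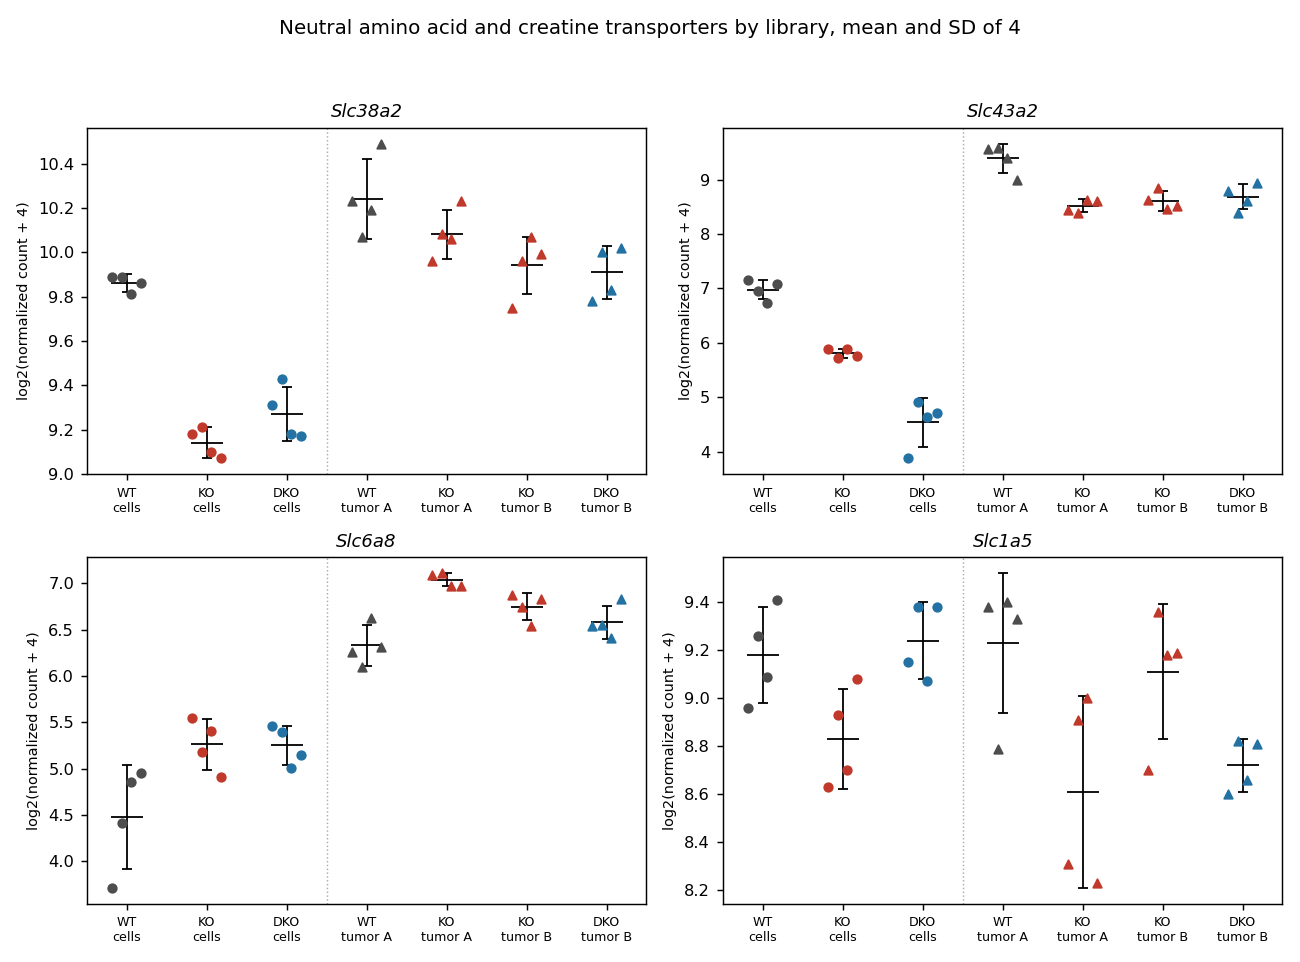
Values of Slc38a2, Slc43a2, Slc6a8 and Slc1a5 on the log2(normalized count + 4) scale in the 7 groups, with 1 point per library and the mean with SD of 4 libraries. Slc43a2 falls from WT to KEAP1-KO to DKO in cells and is higher in every tumor than in any cell library.

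Among tumors of Experiment A, 3 of 27 members tested were higher and 8 lower with KEAP1-KO, against 5.61% and 7.49% of all 34215 rows. The count of 11 fell to 7 without WT replicate 3 or KEAP1-KO replicate 1, where the share of all rows called fell from 13.1% to 10.6% and 10.8%. The median difference was -0.16 for the members and -0.03 for all rows. The higher ones were Slc6a9, Slc1a4 and Slc6a8. Slc6a8 was at 6.26, 6.10, 6.63 and 6.31 with WT and at 7.09, 7.11, 6.97 and 6.97 with KEAP1-KO, a difference of 0.71 ± 0.12 without overlap (adjusted p = 0.00094). With DKO against KEAP1-KO in Experiment B, Slc6a8 did not pass (-0.17 ± 0.12, adjusted p = 0.511). In Experiment B, 1 member rose (Slc7a8) and 2 fell (Slc1a4 and Slc6a9), against 8.86% of all rows (4.22% higher and 4.64% lower).

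The members lower in KEAP1-KO tumors of Experiment A were Slc7a8, Slc6a4, Slc36a4, Slc7a2, Slc43a3, Slc43a2, Slc7a7 and Slc1a5. Of these, Slc7a8, Slc7a7, Slc36a4, Slc7a2 and Slc6a4 had mean values of 2.0 to 3.07 in the cultured cells of any genotype. Marker genes of leukocytes fell in the same tumors: 10 of 10 were lower with KEAP1-KO in Experiment A, and in Experiment B 8 of 10 were higher and 1 lower with DKO. Of 11 macrophage markers, 10 were lower in Experiment A and 6 higher in Experiment B. Summed normalized counts of the leukocyte markers were 3810 to 4760 in WT tumors, 1140 to 1280 and 1650 to 2080 in KEAP1-KO tumors (A and B) and 2520 to 4020 in DKO tumors. Those of the macrophage markers were 8770 to 12000, 3760 to 4650, 6160 to 7040 and 8860 to 11800. In cultured cells the leukocyte sums were 13.7 to 186, with Tyrobp at 0 in all 12 libraries, and the macrophage sums 93.5 to 256, with Adgre1 at 0. Other cell types moved as well. Of 7 fibroblast markers tested, 2 were lower in Experiment A and 3 higher in Experiment B, with sums of 4810 to 12100 in WT tumors, 1960 to 4780 and 2810 to 3530 in KEAP1-KO tumors, 10800 to 14600 in DKO tumors and 371 to 719 in cells, where Fap was at 0. Of 4 markers of T and NK cells tested, 3 were lower in Experiment A and 2 higher in Experiment B, and their sums were 80.6 to 131 with WT, 22.4 to 32.8 and 19 to 27.4 with KEAP1-KO, 51.2 to 89.8 with DKO and 7.51 to 15.1 in cells, with Cd3e and Cd4 at 0. Of 7 neutrophil markers, 5 were lower in Experiment A and 2 higher in Experiment B, with sums that overlapped between the groups (678 to 2160, 447 to 854, 338 to 1290 and 556 to 858) and were 22.7 to 51.9 in cells, where S100a9 was at 0. Of 4 skeletal muscle markers tested, Acta1 and Myh1 were higher with DKO in Experiment B, with sums of 23 to 411 against 14 to 62.2 with KEAP1-KO, and none was called in Experiment A. Of 3 adipocyte markers tested, Cfd was called, lower in Experiment A and higher in Experiment B, with sums of 19.2 to 45.7 with WT, 13.5 to 20.4 and 11 to 18.1 with KEAP1-KO and 26.3 to 42.2 with DKO. Of 8 endothelial markers, Cldn5 was the one called, lower with DKO in Experiment B. The part of these cells in the values of the members was not tested.

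Slc7a8, the light chain LAT2 for neutral amino acids, was at 2.0, 0 reads, in all WT and KEAP1-KO cells and at 2.0 to 2.71 in DKO cells. In tumors it was at 7.64, 7.48, 7.42 and 7.01 with WT and at 5.13, 5.23, 5.54 and 5.17 with KEAP1-KO in Experiment A, while Experiment B gave 6.04, 6.28, 5.75 and 6.53 with KEAP1-KO and 7.35, 7.52, 7.58 and 6.98 with DKO. The groups did not overlap in either experiment, with differences of -2.12 ± 0.18 (adjusted p = 1e-06) and 1.21 ± 0.18 (adjusted p = 0.000435), which makes Slc7a8 the member that fell and then rose in tumors, as did 2.17% of all rows. WT and DKO tumors differed by -0.03 ± 0.18 (adjusted p = 0.948). Against a floor of 3 reads in each library of cells, it was at least 50.4-fold higher in WT tumors and at least 12.8-fold and 25-fold higher in KEAP1-KO tumors (A and B). KEAP1-KO tumors of B and A did not overlap for Slc7a8 (0.88 ± 0.18), although this missed the threshold (adjusted p = 0.0853) and passed it with rows summed, where fewer rows are tested (adjusted p = 0.0378).

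Slc7a7, the light chain of the exchanger mutated in lysinuric protein intolerance, was at 5.88, 6.33, 6.07 and 5.31 in WT tumors and at 5.04, 5.32, 5.17 and 5.21 in KEAP1-KO tumors of Experiment A. The ranges met at 1 WT tumor, and the difference was -0.71 ± 0.19 (adjusted p = 0.0204). The call was lost without WT replicate 2 or 3 or KEAP1-KO replicate 1, with differences from -0.91 to -0.57 over the libraries left out. In Experiment B, 5.37 to 5.90 with KEAP1-KO stood against 5.62 to 6.01 with DKO (0.33 ± 0.19, adjusted p = 0.372). Slc36a4, a transporter of proline and tryptophan, was at 6.39, 5.36, 5.44 and 5.37 with WT and at 4.37, 4.34, 4.91 and 4.29 with KEAP1-KO, a difference of -1.16 ± 0.23 without overlap (adjusted p = 0.00234). In Experiment B its values were 4.90 to 5.29 and 5.17 to 5.69 (0.34 ± 0.23, adjusted p = 0.452).

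Slc7a2, a cationic transporter that brings arginine into activated macrophages among other cells, had 0 reads in all 12 libraries of cells. It was at 4.05, 4.34, 4.54 and 3.43 in WT tumors and at 2.64, 3.29, 3.14 and 2.79 in KEAP1-KO tumors of Experiment A, a difference of -1.12 ± 0.31 (adjusted p = 0.0244). The groups did not overlap, but the call was lost without WT replicate 1, 2 or 3 or KEAP1-KO replicate 1 or 4 (-1.34 to -0.97). DKO tumors (3.24 to 4.39) overlapped KEAP1-KO tumors of B (3.00 to 3.73). Against the floor of 3 reads per library of cells, Slc7a2 was at least 4.17-fold higher in WT tumors, 1.44-fold and 2.79-fold higher in KEAP1-KO tumors (A and B) and 3.78-fold higher in DKO tumors.

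Slc6a4, the serotonin transporter, was at 4.27, 4.98, 4.75 and 4.84 in WT tumors and at 2.87, 3.11, 3.29 and 2.57 in the KEAP1-KO tumors beside them. The values of Experiment B were 2.58, 3.39, 3.33 and 3.27 with KEAP1-KO and 3.07, 3.49, 3.15 and 3.65 with DKO. All 4 WT tumors lay above the 12 others, with differences of -1.75 ± 0.26 for KEAP1-KO (adjusted p = 0.000189) and -1.37 ± 0.26 for DKO against WT (adjusted p = 0.00239). DKO against KEAP1-KO did not pass (0.19 ± 0.26, adjusted p = 0.758). The WT and DKO tumors compared here differ in experiment, flank and genotype, which cannot be told apart.

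Slc43a3, whose protein carries purine bases and not amino acids, was at 4.42 to 4.77 in WT tumors and 3.30 to 4.13 in KEAP1-KO tumors of Experiment A (-0.96 ± 0.29, adjusted p = 0.0415). The call was lost without any one of the 4 WT tumors and without KEAP1-KO replicate 1, 2 or 4, where the difference ran from -1.11 to -0.83 over all libraries left out, and with a replicate block (-0.96, adjusted p = 0.0599). Slc1a5 was at 9.38, 8.79, 9.40 and 9.33 with WT and at 8.31, 8.91, 9.0 and 8.23 with KEAP1-KO. The groups overlapped, and the difference of -0.61 ± 0.19 (adjusted p = 0.0405) lost its call without WT replicate 1, 3 or 4 or KEAP1-KO replicate 1 or 4 (-0.76 to -0.49) and with a replicate block (-0.61, adjusted p = 0.0657). It was not called in Experiment B (-0.38 ± 0.19, adjusted p = 0.263).

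**Figure D5:**
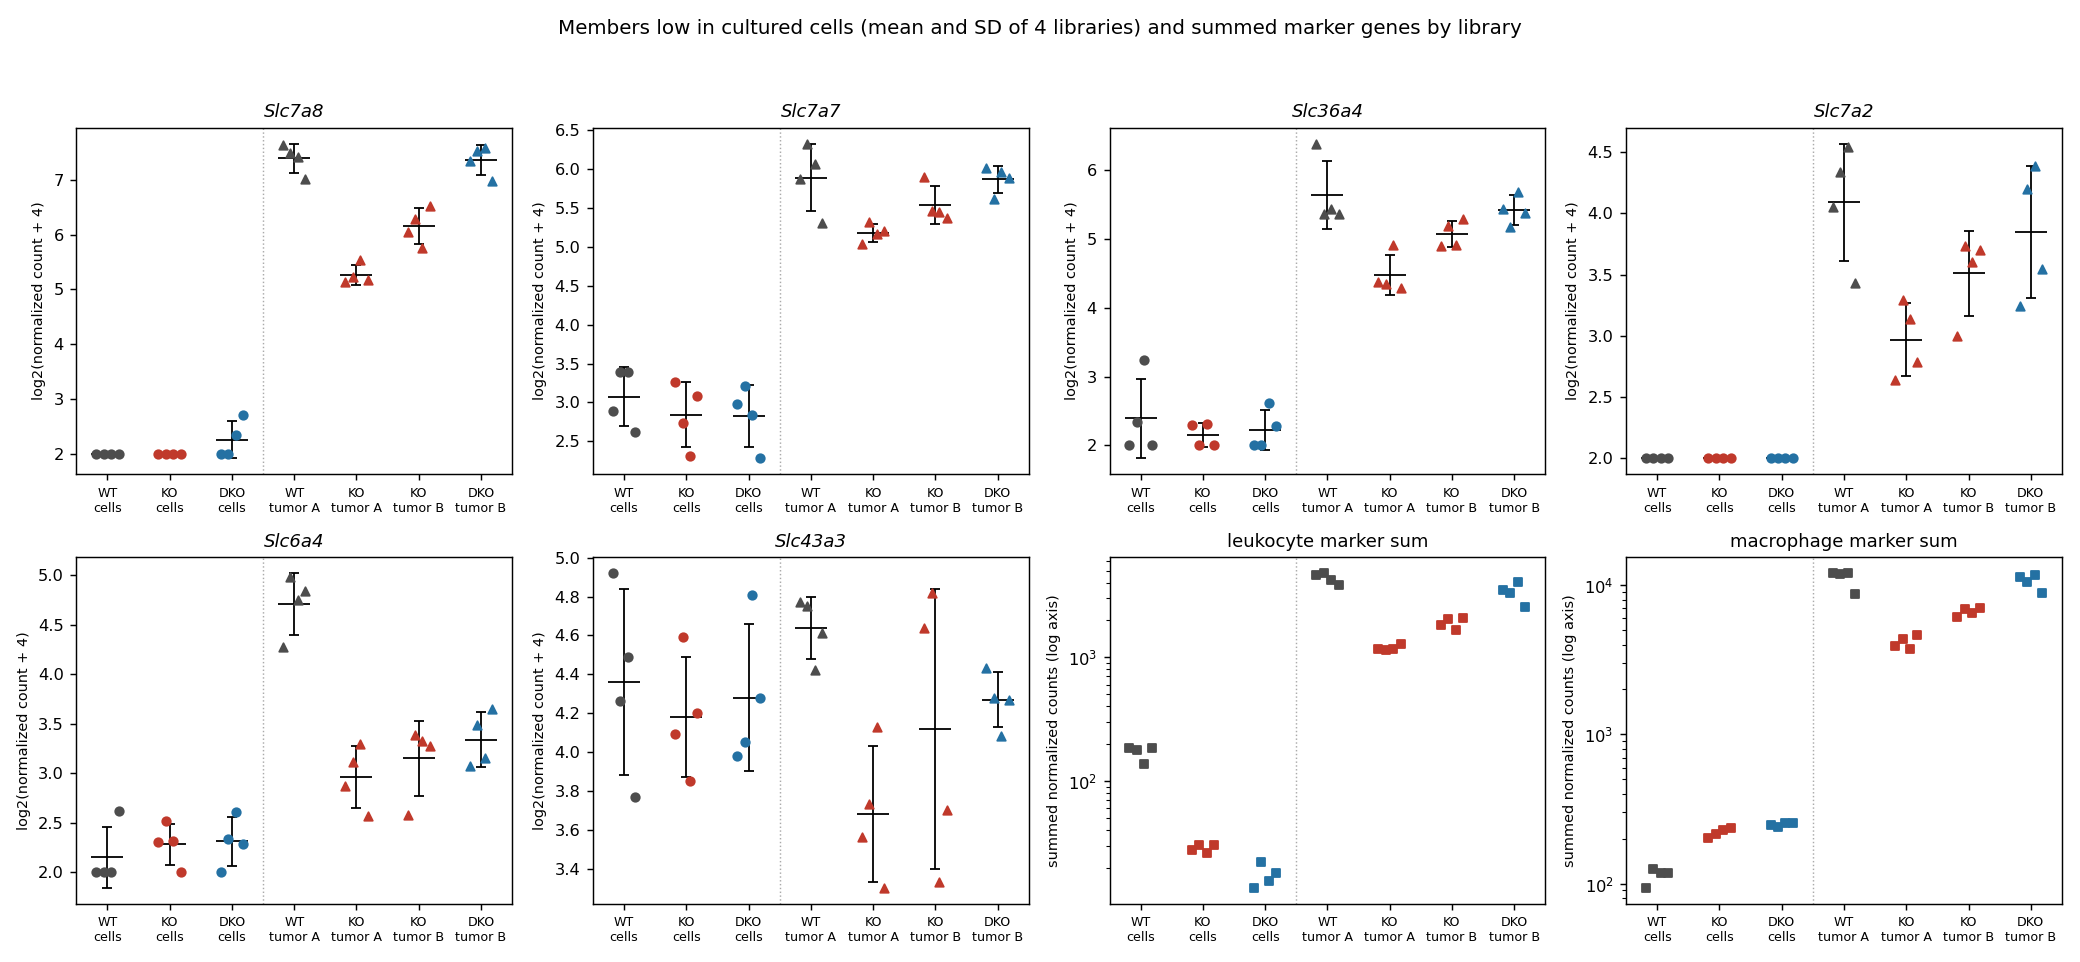
Values of 6 members lower in KEAP1-KO tumors of Experiment A on the log2(normalized count + 4) scale, with 1 point per library and the mean with SD of 4 libraries, beside summed normalized counts of 10 leukocyte and 11 macrophage markers on a log axis, in the 7 groups. Slc7a8, Slc7a7, Slc36a4, Slc7a2 and the marker sums are low in cultured cells and highest in WT and DKO tumors, while Slc6a4 is high in WT tumors only.

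KEAP1-KO tumors were grown in both experiments, and none of the 27 members was called between B and A by limma, against 0.164% of all rows (0.152% higher and 0.0117% lower). At an unadjusted p under 0.05, 3 members were higher in B (Slc7a8, Slc36a4 and Slc1a5) and 1 was lower (Slc6a8), against 7.69% of all rows (4.59% higher and 3.11% lower). DKO tumors of B against WT tumors of A gave 6 members lower (Slc6a4, Slc7a3, Slc43a2, Slc6a9, Slc1a4 and Slc38a2) and 0 higher by their single rows, against 10.6% of all rows (4.57% higher and 5.99% lower). With rows summed, Slc38a1 (0.47, adjusted p = 0.00075) and Slc38a10 (0.55, adjusted p = 0.0365) were called higher and Slc1a5 lower (-0.45, adjusted p = 0.049), where 21.5% of all sums were called. At an unadjusted p under 0.05, 7 were lower and 2 higher by their single rows, against 23.2% of all rows (10.5% higher and 12.7% lower). The Slc1a4 (-0.50 ± 0.15, adjusted p = 0.0411), Slc6a9 (-0.53 ± 0.16, adjusted p = 0.0384) and Slc38a2 (-0.34 ± 0.10, adjusted p = 0.032) calls were each lost without some libraries. For Slc1a4 these were WT replicates 1, 2 and 4 and DKO replicates 1, 2 and 3 (-0.62 to -0.40 over all left out). For Slc6a9 they were WT and DKO replicates 1, 2 and 3 (-0.69 to -0.41), and for Slc38a2 WT replicates 1, 3 and 4 and DKO replicates 1 and 3 (-0.39 to -0.25).

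Tumors were set against cells of the same genotype in the fit of all 28 libraries. The 7 members tested in tumors only entered this fit through the tumors, which favours higher values there, so calls are again counted over the 20 members tested in both. With WT, 6 of these were higher and 6 lower in tumors, against 41.1% of the 28192 rows tested in both (23.5% higher and 17.7% lower), and with DKO 6 and 7, against 46.4% (26.9% and 19.5%). With KEAP1-KO it was 5 and 6 for Experiment A (43.7%, with 24.4% higher and 19.2% lower) and 7 and 6 for Experiment B (41.8%, with 23.7% and 18.2%), with the same cell libraries in both. Over all 27 members the calls were 10 higher and 6 lower with WT (38.8% of all rows), 11 and 6 and 13 and 6 with KEAP1-KO of A and B (39.6% and 38.8%) and 10 and 7 with DKO (43.5%). Slc43a2 was higher by 2.41 ± 0.17 with WT, 2.71 ± 0.17 and 2.80 ± 0.17 with KEAP1-KO and 4.14 ± 0.17 with DKO, where the cells had least. Slc7a7 (2.34 to 3.04), Slc6a8 (1.33 to 1.85), Slc38a7 (0.79 to 0.94) and Slc38a2 (0.38 to 0.94) were also called higher in each of the 4, as were 14.1% of the rows tested in both. With rows summed, Slc38a7 passed with WT (0.50, adjusted p = 0.0184) and KEAP1-KO of A (0.41, adjusted p = 0.0486) but not with DKO (0.15, adjusted p = 0.498) or KEAP1-KO of B (0.09, adjusted p = 0.704), where of its 2 other rows 1 was called higher and 1 lower. Under quantile normalization and with medians centred it kept its call in 1 of the 4, KEAP1-KO of A. Summing rows, where fewer rows are tested, also added calls, each of them higher in tumors. Slc38a1 was added in each of the 4 (0.53 with WT, 0.59 and 0.66 with KEAP1-KO of A and B, 0.64 with DKO). Slc38a9 was added with WT (0.34), KEAP1-KO of A (0.73) and DKO (0.86), and Slc38a6 with WT (0.48) and DKO (0.59). Slc6a6 was added with WT and DKO (0.78 each), and Slc7a14 with KEAP1-KO of A (0.31). With medians centred, Slc38a2 did not differ between WT tumors and WT cells (-0.01). Slc7a14 was also called higher with WT, KEAP1-KO of B and DKO, and Slc38a9 with KEAP1-KO of B. Both scalings ended the Slc38a9 call and the Slc7a14 calls with KEAP1-KO of B and DKO (0.42, 0.21 and 0.24 under quantile normalization). Slc1a5, called lower with DKO, lost its call under quantile normalization (-0.03, adjusted p = 0.924). Of the members that entered through the tumors, Slc36a4 was at 2.0 to 3.24 in cells and 4.29 to 6.39 in tumors, and Slc6a4 at 2.0 to 2.62 and 2.57 to 4.98.

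Called lower in each of the 4, as were 12.5% of the rows tested in both and 9.61% of all rows, were Slc7a5 (-2.31 to -1.30), Slc7a3 (-2.49 to -1.25), Slc1a4 (-2.16 to -0.92), Slc6a9 (-1.83 to -0.32), Slc7a6os (-1.41 to -0.91) and Slc7a6 (-0.89 to -0.51). Under quantile normalization Slc7a5 was lower by -1.57 to -0.66 and Slc1a4 by -1.9 to -0.45, and the calls were lost for Slc7a6 with WT (-0.06, adjusted p = 0.728) and KEAP1-KO of B (-0.14, adjusted p = 0.328) and for Slc6a9 with KEAP1-KO of B (-0.13, adjusted p = 0.532). The fall of Slc7a5 was largest with DKO (-2.31 ± 0.10), from the highest level in cells. Slc3a2 fell likewise by -0.87 ± 0.08 with WT and -1.86 ± 0.08 with DKO. Slc6a9 in KEAP1-KO tumors of A was only -0.32 ± 0.13 below KEAP1-KO cells (adjusted p = 0.0431), and this call was lost without any one KEAP1-KO cell library or KEAP1-KO tumor 1 or 2 (-0.37 to -0.28) and turned to 0.16 under quantile normalization. Proliferation markers were lower too (7 of 8 in each of the 4), and their part in these differences was not tested.

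The remaining members gave no call between adjacent genotypes by their single rows. Slc38a1, Slc38a6, Slc38a9, Slc38a10 and Slc36a1os were tested in cells and in tumors and stayed without a call there. With rows summed, Slc38a1 was also called higher from KEAP1-KO to DKO in cells (0.18, adjusted p = 0.0381) and with KEAP1-KO in Experiment A (0.24, adjusted p = 0.0493), beside the calls of Slc38a1 and Slc38a10 in cells given above. Slc1a1, the glutamate and cysteine carrier, Slc1a7 and Slc38a4 were tested in tumors only. Slc1a1 had 0 reads in all cells and 2.0 to 3.78 in tumors, and Slc1a7 reached at most 4.71. Slc38a9, the lysosomal arginine sensor of mTORC1, was at 2.57 to 4.02 in all 28 libraries. Slc7a1, the main arginine transporter CAT1, could not be read through its symbol row. That transcript was at exactly 2.0 in 13 libraries and between 4.88 and 6.65 in the others, within every group. Of its other rows, 3 were tested in cells and 4 in tumors. Neither these rows nor the sum of all its rows was called between adjacent genotypes.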

How the data were processed

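RNA of 28 libraries (12 of cultured cells and 16 of tumors) was prepared with ribosomal RNA depletion and a directional kit. Per the labels, one extract protocol names livers, while titles and methods give 3LL cells and tumors. The authors quantified reads with Salmon 1.5.1 against GENCODE mouse transcripts (version 35 as the methods state) and normalized them in iDEP, and the deposited values are log2 of a normalized count plus 4. Transcript and gene rows stand side by side in the table. The values were used as deposited, with limma 3.58.1 (R 4.3.3; lmFit, eBayes with trend) in 3 fits: 12 libraries of cells (29744 rows), 16 tumors (34215 rows) and all 28 (37246 rows). A TPM scale had been allowed for, and no count model was run because the values are not raw counts. Rows needed a normalized count of 5 or more in 4 or more libraries, p-values were adjusted by Benjamini-Hochberg over all rows tested, and the threshold was 0.05. Values of 0 reads limit the precision of low rows. The lower-bound folds use a floor of 3 reads per library and cover counting error only. No replicate pair agreed within sampling noise.

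Members named in full were those called with the largest differences between groups that do not overlap (up to 8 in each direction), those with the 5 highest means in cells and those called in opposite directions in successive comparisons. The members and lists were chosen with earlier results of these data known. The main fits did not pair libraries by replicate number. Same-number correlations of deviations from group means ran from -0.029 to 0.031, which cannot show whether tumors shared a mouse. Alternatives were another pseudocount, filter, scaling, spread model, a replicate block, summed rows (chosen after seeing the data) and leaving out each library. On simulated data the tumor fit recovered 42% of rows changed by 1 and 84% of those changed by 2 (log2) in the comparison of KEAP1-KO with WT.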

Additional observations from a re-analysis of the deposited data

Results flagged for a closer look

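The effect of genotype differed between tumors and cells for 6 of the 20 members tested in both. Each was called for either or both interactions in the limma fit of all 28 libraries. Of the rows tested in both, 4.39% were called for KEAP1-KO against WT and 3.62% for DKO against KEAP1-KO. Of all rows it was 5.38% and 3.67%, and the share called for either interaction was not counted. Values are the log2 difference in tumors minus that in cells. For KEAP1-KO against WT it was 0.92 for Slc1a4, 1.07 for Slc6a9, 1.24 for Slc7a3 and 0.56 for Slc38a2. For DKO against KEAP1-KO it was -1.17 for Slc1a4, -1.22 for Slc6a9, -1.22 for Slc7a3, -0.97 for Slc7a5 and 1.34 for Slc43a2. Summing rows added Slc7a6 for both (-0.34 and -0.40) and Slc1a5 for DKO against KEAP1-KO (-0.65, adjusted p = 0.0334). It also added Slc7a2, at 0 reads in cells, for KEAP1-KO against WT (-1.12, adjusted p = 0.028). Slc6a4 and Slc7a8 entered the fit through the tumors and were at or near 0 reads in cells, where no effect of genotype could be measured. Their values, -1.88 and -2.12 for KEAP1-KO against WT and 0.95 for DKO against KEAP1-KO (Slc7a8), are listed for completeness. The last of these, with an adjusted p of 0.0402, was lost without any of 12 of the 16 libraries taken out in turn (0.81 to 1.10). It was also lost with a pseudocount of 0.4 (0.07, adjusted p = 0.983), quantile normalization, median centring, only the groups compared and a replicate block (0.86 to 0.95). The interactions share the KEAP1-KO cells.

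A library stood apart from the other 3 of its group in 7 of 111 groups screened, where chance gives about 1 in 20. Among WT tumors, Slc1a5 was lowest at 8.79 (others 9.33 to 9.40) and Slc36a4 highest at 6.39 (others 5.36 to 5.44). Among KEAP1-KO tumors of Experiment A, Slc36a4 was highest at 4.91 (others 4.29 to 4.37) and Slc7a5 at 11.17 (others 10.65 to 10.73). Among KEAP1-KO tumors of Experiment B, Slc6a4 was lowest at 2.58 (others 3.27 to 3.39) and Slc7a6os at 7.31 (others 7.57 to 7.63). Among DKO tumors, Slc7a5 was lowest at 10.72 (others 11.07 to 11.11). The cause was not tested.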

How the results depend on the processing

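Over 122 pairs of a member and a comparison, 2057 values under other settings gave 1917 with the same direction and side of the threshold, 138 that lost the call and 2 that turned direction. The turned values were Slc6a9 in KEAP1-KO tumors of A against KEAP1-KO cells under quantile normalization (0.16, adjusted p = 0.424) and Slc38a2 in WT tumors against WT cells under median centring (-0.01, adjusted p = 0.955). The scaling moved the median of all rows in tumors against cells, for WT from 0.204 to -0.062 (quantile) and -0.19 (median centring), with 63.6%, 47.2% and 35.3% of calls higher. The counts of members called changed by over 1.5 times as follows. KEAP1-KO against WT in cells gave 13 with rows summed (29.7% of all rows called). DKO against WT gave 4 in cells (15.8%) and 3 in tumors (8.84%) without a trend in the spread. KEAP1-KO tumors of B against A gave 1 with a mean of at least 25 (0.559%) and 1, Slc7a8, with rows summed (0.565%). Against cells, KEAP1-KO tumors of B gave 12 with the mean filter (66.6%), which leaves fewer rows to test, and those of A gave 11 over rows tested in both fits (43.7%). Leaving out 1 library gave 7 to 13 for KEAP1-KO against WT tumors, with 7 without WT replicate 3 or KEAP1-KO replicate 1 (10.6% and 10.8%), and 3 to 6 for DKO against WT tumors, with 3 without WT replicate 1 or DKO replicate 1 or 3 (8.85%, 8.35% and 9.27%). With a replicate block, 7 members were called for KEAP1-KO against WT in cells, 7 for DKO against KEAP1-KO and 7 for DKO against WT (13.7%, 7.34% and 15.6% of all rows), and in tumors 9 and 3 in Experiments A and B (11% and 7.28%). The block ended 5 calls (Slc7a14 and Slc7a6os in cells, Slc43a3 and Slc1a5 in tumors, and the Slc7a8 interaction). It also added calls in both comparisons of adjacent genotypes in cells, which are not named here. Only between WT and DKO cells did every library correlate best with its own number. For other counts the cause was not tested. Low rows are limited by depth, since a few reads set their value.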

Other observations

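Other solute carriers that move amino acids and peptides were listed beside the members. Of 17 rows tested in tumors, 4 fell and 1 rose with KEAP1-KO in Experiment A, against 13.1% of all rows called in either direction. Slc15a3, a lysosomal carrier of histidine and peptides found in immune cells, fell by 2.58 (adjusted p = 3.44e-07) and rose by 1.13 with DKO in Experiment B (adjusted p = 0.00173), beside the leukocyte markers given above. The others that fell were Slc25a15, the mitochondrial ornithine carrier (-0.94 ± 0.13), the peptide transporter Slc15a2 (-0.88 ± 0.23) and Slc25a40 (-0.76 ± 0.15), and Slc25a13, the mitochondrial aspartate and glutamate carrier, rose by 0.97 ± 0.25. In cells, Slc25a39, a carrier of glutathione into mitochondria, rose by 0.80 ± 0.23 with KEAP1-KO (adjusted p = 0.0328).

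Among genes by which mTORC1 senses amino acids, 28 rows were tested in cells, with 2 higher and 3 lower for KEAP1-KO, against 15.5% of all rows called, and 2 higher and 2 lower for DKO against KEAP1-KO, against 8.83%. Rragd, a Rag GTPase, rose by 1.21 ± 0.13 with KEAP1-KO (adjusted p = 3.41e-05) and changed by -0.91 ± 0.13 with DKO (adjusted p = 0.000612). In tumors it rose by 1.07 ± 0.21 (adjusted p = 0.00218), and -0.42 ± 0.21 with DKO did not pass. Sesn1 was lower with KEAP1-KO by -0.62 ± 0.08 in cells and -0.61 ± 0.11 in tumors of Experiment A.

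Slc38a4 was at 6.86 in WT tumor 1 and at 2.30 to 3.28 in the other 3 WT tumors.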
